A study of Mus musculus with 6 samples.

Results

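Predicted miRNAs of the mouse ovary were examined: all rows of the deposited miRNA table whose ID carries the prefix that marks a prediction rather than an annotated miRNA. They make up 275 of the 1300 rows, the other 1025 being annotated. Names are given here without that prefix. The number in such a name is taken here as a serial number of the prediction. Of the 252 serial numbers, 94 are also the number of an annotated miRNA, and a shared number is not taken to mean a shared sequence. Predicted rows with the same number are treated as arms of the same hairpin. Predicted miR205-5p, for instance, was at 69.6 to 211 RPM (reads per 1000000 of the library's total), while the annotated miR-205-5p was at 17.6 to 37.5 RPM. The table gives no sequence, coordinates or host gene for the predicted rows, so none are shown.

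A miRNA is cut from a hairpin-shaped precursor, first by Drosha in the nucleus and then by Dicer in the cytoplasm. Each hairpin has a 5p and a 3p arm. Usually one of them is loaded into an Argonaute protein and guides it, through its seed bases, to partly complementary messenger RNAs, while the other arm is degraded. Prediction programs propose a miRNA where small RNA reads pile up on a stretch of the genome that can fold into such a hairpin. Reads from both arms of one hairpin are commonly taken as a mark of such processing.

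Small RNA was sequenced from whole ovaries of female C57BL/6J mice, 3 libraries from mice at normal pressure and 3 from mice under hypobaric hypoxia. The normal-pressure mice were kept in Lanzhou at 1588 m and 83.56 kPa. The others were kept at 43.12 kPa in a decompression chamber. The labels put the simulated altitude at 6500 m, except for the sample descriptions, which give 5000 m. Exposure is stated as 15 days for the study and as 15, 16 or 17 days for single samples. The mice were 8 weeks old per the study's design and 6 to 8 weeks old per the samples. Both groups were synchronized by gavage with levonorgestrel and ethinylestradiol, with doses (0.1 and 0.02 mg/kg) stated for the hypobaric group alone. Each group had 15 mice, and whether these were pooled for a library is not stated, so p-values rest on differences among libraries that may be technical. All 6 libraries carry the same batch number. The labels give 12, 13 and 14 h of dark for normal-pressure libraries 1, 2 and 3 and 12 h for every hypobaric library. For the hypobaric mice alone they state a 0.5 h break for feeding every 2 days.

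Each library held 20800777 to 22559146 implied reads in all, of which 6852198 to 8701696 were on miRNA rows. The miRNA rows took 30.4% to 36.3% of the reads at normal pressure and 38.0% to 41.1% under hypobaric hypoxia. The gonad-enriched miR-202, both arms summed, was at 998 to 1349 RPM at normal pressure and 2191 to 3462 RPM under hypobaric hypoxia. The 6 red-cell miRNA rows (miR-451a, miR-144 and miR-486 arms), none of them at 0 in all libraries, summed to 691 to 1559 RPM and to 9453 to 14987 RPM. Nearly all of that was miR-451a, and the other 5 rows summed to 9.86 to 37.6 RPM and to 70.7 to 123 RPM. The 3 lymphoid and myeloid rows summed to 569.8 to 787 RPM and to 917 to 1068 RPM, mostly miR-150-5p, and the 2 kidney and gut rows to 173 to 255 RPM and to 269 to 279 RPM. The sums of smooth muscle, endothelial, striated muscle, liver and neural rows overlapped between the groups. The smooth muscle sum was mostly miR-143-3p, which overlapped. Its other row, miR-145a-5p, did not, at 2711 to 3024 RPM at normal pressure and 3443 to 3796 RPM under hypobaric hypoxia. miR-122-5p of liver stayed at or under 1.51 RPM in every library. Whole tissue was sequenced, so fewer cells of a type and less RNA per cell cannot be told apart.

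The predicted miRNAs were rare. Their mean level over the 6 libraries had a median of 0.0697 RPM, against 0.503 RPM for the annotated miRNAs. Only 3 predicted miRNAs averaged at least 100 RPM and 10 a mean of at least 10 RPM. A further 17 lay from 1 to under 10 RPM, 90 from 0.1 to under 1 RPM and 158 under 0.1 RPM. The median predicted row rested on 9 reads over all 6 libraries, and 73 rows rested on 3 reads or fewer. The median annotated row had 64 reads. A mean of at least 1 RPM was reached by 9.82% of the predicted and 43.7% of the annotated rows.

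A few rows carried most of the signal. The 3 most abundant held 60.3% of the summed predicted level and the 10 most abundant 89.1%, while the 248 rows under 1 RPM together held 4.31%. The highest was miR474-3p, measured at 174, 103 and 175 RPM in the 3 libraries from normal pressure and at 212, 165 and 171 RPM in the hypobaric ones. Its mean of 167 RPM ranked 108 of all 1300 rows. Normal-pressure library 2 was its lowest value and hypobaric library 1 its highest, with the other 4 close together. Next came miR450-5p, at 218, 212 and 74.0 RPM at normal pressure and 106, 99.9 and 155 RPM under hypobaric hypoxia. Both the highest and the lowest of its 6 values came from normal-pressure libraries. The third, miR205-5p, had a mean of 139.5 RPM, and miR220-5p followed at 55.5 to 94.0 RPM, with overlapping groups. The others of at least 10 RPM were miR155-3p (33.8 to 49.1 RPM), miR75-5p (24.6 to 44.3 RPM), miR389-3p, miR133-3p (10.5 to 36.4 RPM), miR116-3p (9.76 to 16.7 RPM) and miR365-5p.

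**Figure D1:**
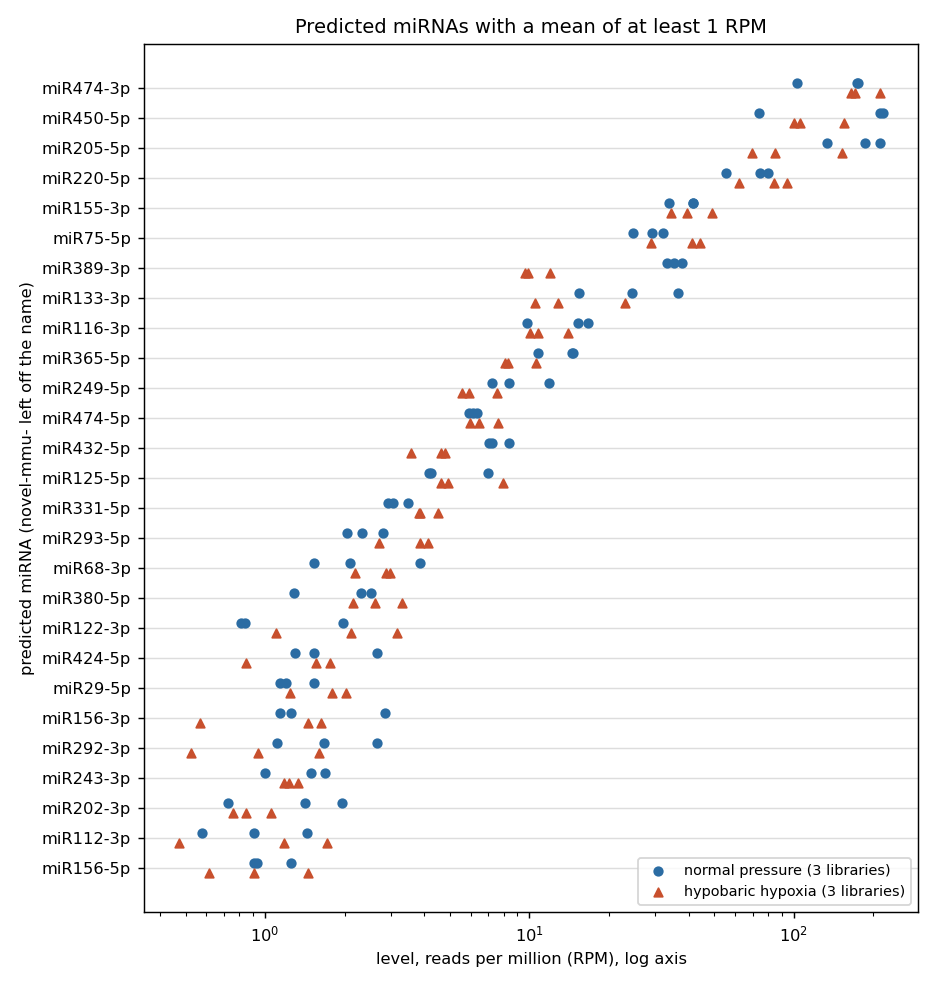
Level of each of the 27 predicted miRNAs at or above a mean of 1 RPM, in RPM on a log axis, 1 point per library (circles normal pressure, triangles hypobaric hypoxia, 3 each). Levels run from under 1 RPM to 218 RPM, and the groups stand far apart for miR389-3p, at 33.0 to 37.9 RPM against 9.60 to 12.0 RPM.

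Detection thinned out fast below that level. A read was found in all 6 libraries for 85 predicted rows (30.9%), in 2 to 5 libraries for 143 and in 1 library for 47. Among annotated rows 62.5% were read in all 6. Each library detected 183 to 198 predicted miRNAs at normal pressure and 154 to 164 under hypobaric hypoxia. The means were 189 ± 7.77 and 159 ± 5.03 (SD, n = 3), with exact permutation p = 0.1, two-sided, the smallest possible with 3 against 3 (adjusted over the 4 single-value comparisons, 0.2). Every hypobaric library lay under every normal-pressure library. With detection set at 3 reads, the difference of the means was -13 in place of -30.7, and the groups overlapped (exact permutation p = 0.3).

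The table used here is not symmetric between the groups, and this bears directly on that count. Of the predicted rows, 60 (21.8%) were read in normal-pressure libraries only and 0 in hypobaric libraries only. The annotated rows share the pattern, with 99 (9.66%) and 0. Every one of the 1300 rows therefore had a read in at least 1 normal-pressure library, while no such condition held for the hypobaric libraries. All 47 predicted rows read in a single library were read at normal pressure, 14, 19 and 14 of them in libraries 1, 2 and 3. The difference in detection cannot be told apart from this property of the list, and it also weighs on the lowest levels.

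**Figure D2:**
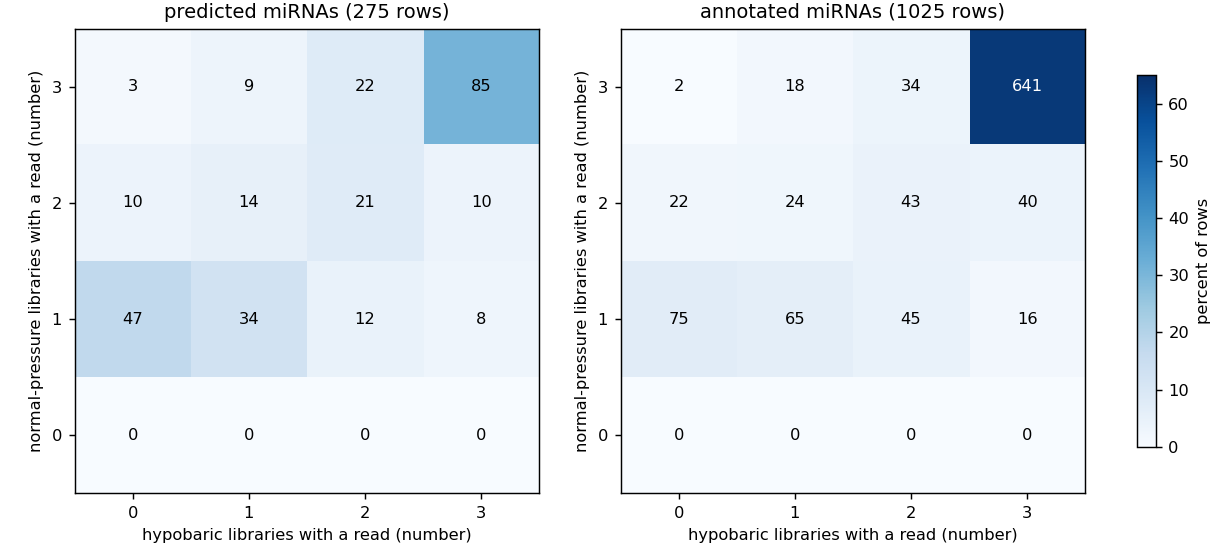
Number of rows (printed, with colour for percent of rows) by how many hypobaric libraries (horizontal axis) and normal-pressure libraries (vertical axis) held a read, for 275 predicted and 1025 annotated miRNAs. The lowest line, rows without a read at normal pressure, holds 0 rows in both panels, and the corner for all 6 libraries holds 85 predicted and 641 annotated rows.

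The 60 rows without a hypobaric read were shallow, with a median of 2 and at most 16 reads in all. Only 3 of them were read in all 3 normal-pressure libraries. For miR2-5p these were 1, 3 and 1 reads, and for miR310-3p and miR52-5p 1 read in each. In a hypobaric library 3 reads would be 0.141 to 0.143 RPM, the limit that a count of 0 allows, and no fold change is given. These limits cover counting error only, since the reads carry no molecular identifiers and need not be independent molecules.

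Both arms were represented evenly by number, with 137 rows named 5p and 138 named 3p. The median of the mean level was 0.0680 RPM for 5p rows and 0.0700 RPM for 3p rows. By level the arms differed: 5p rows summed to 459 RPM and 3p rows to 289 RPM over the means of 6 libraries. The 5p share of predicted reads was 61.5%, 69.3% and 59.7% in the normal-pressure libraries and 51.3%, 58.6% and 64.5% in the hypobaric libraries, each with a Wilson 95% interval of at most ± 0.847 percentage points, which covers counting error only. The groups overlapped, and the mean difference of -5.39 percentage points had exact permutation p = 0.4, two-sided (adjusted 0.4). It was -1.97 without hypobaric library 1, -2.49 without normal-pressure library 2 and -8.59 without hypobaric library 3. Without miR474-3p, the most abundant row, the difference was 1.09 percentage points in the opposite direction.

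Only 23 of the 252 predicted hairpins were listed with both arms, and 229 with 1 arm. Of the 23, 4 had at least 300 reads; the other 19 had 10 to 70. In the hairpin of miR474, by far the deepest with 22019 reads, the 3p arm dominated in all 6 libraries. Its 5p share was 2.96% to 5.60%, and 3.71% over all reads (Wilson 95% interval 3.47% to 3.97%). The minor arm, miR474-5p, was the steadiest of these rows at normal pressure, with 5.91, 6.12 and 6.35 RPM there and 6.46, 5.96 and 7.63 RPM under hypobaric hypoxia. The hairpins of miR432 and miR125 leaned to the other arm, with 5p shares of 95.3% to 100% and 95.6% to 100%. In that of miR156 neither arm dominated throughout: the 5p share ranged from 24.7% to 52.0% over 320 reads, with 3p higher in 3 libraries, 5p in 1 and equal counts in the others.

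**Figure D3:**
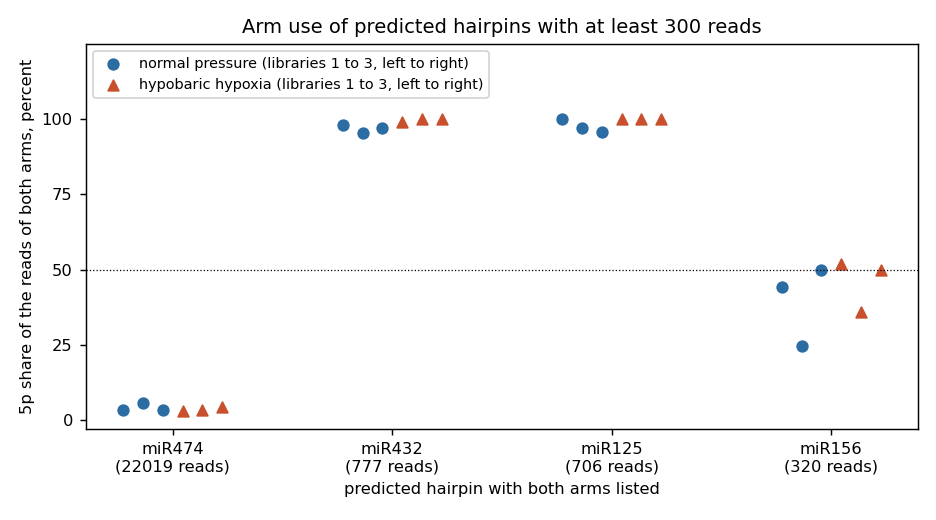
Share of reads on the 5p arm, in percent, for the 4 predicted hairpins with both arms listed and at least 300 reads, 1 point per library (circles normal pressure, triangles hypobaric hypoxia). miR474 stays at or under 5.60%, miR432 and miR125 at or above 95.3%, and miR156 spreads around the dotted line at 50%.

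The summed level of all predicted miRNAs was 830.2, 857 and 734 RPM in the normal-pressure libraries and 631, 651 and 781 RPM in the hypobaric libraries. Hypobaric library 3 exceeded normal-pressure library 3, so the groups overlapped. The means were 807 ± 64.5 and 688 ± 81.4 RPM (SD, n = 3), a difference of -119.7 RPM with exact permutation p = 0.2, two-sided (adjusted 0.267). With median-of-ratios scaling the difference was -212 RPM, with the same p. Within the sum, miR205-5p differed by -74.6 RPM, miR450-5p by -47.9 RPM and miR389-3p by -24.9 RPM, while miR474-3p differed by 31.9 RPM in the other direction.

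As a share of all miRNA reads the predicted rows took 0.228%, 0.282% and 0.210% at normal pressure. Under hypobaric hypoxia they took 0.154%, 0.171% and 0.205%. Wilson 95% intervals, for counting error only, were at most ± 0.00397 percentage points, less than the differences between libraries of a group. Every hypobaric share lay under every normal-pressure share, with exact permutation p = 0.1, two-sided, the smallest possible (adjusted 0.2). The denominator moved too: miRNA reads were a larger part of every hypobaric library than of any normal-pressure library, as given above, and their part in this result was not tested.

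**Figure D4:**
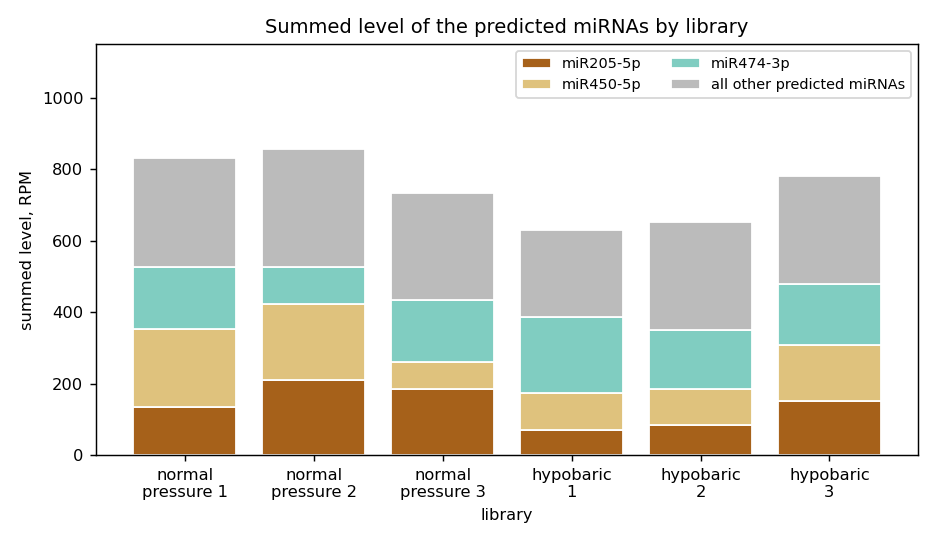
Summed level of the predicted miRNAs in RPM for each of the 6 libraries, as bars from 0 split into the 3 most abundant rows and all others. The bars reach 734 to 857 RPM at normal pressure and 631 to 781 RPM under hypobaric hypoxia, and the miR205-5p segment is shortest in hypobaric libraries 1 and 2.

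The comparison of the 27 predicted miRNAs at or above a mean of 1 RPM asks which of them differ in ovaries kept under low-pressure hypoxia. All 27 were read in all 6 libraries, with at least 10 reads in each. The last inside the limit were miR112-3p (1.05 RPM) and miR156-5p (1.01 RPM), the first outside it miR47-5p (0.938 RPM) and miR496-5p (0.895 RPM), followed by miR236-5p (0.737 RPM). They were tested with limma on log2(RPM + 1) together with the 448 annotated rows that reach 1 RPM, with Benjamini-Hochberg adjustment over all 475. Log2 changes are hypobaric hypoxia over normal pressure on that scale, which understates changes of low rows.

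Of the 27 predicted miRNAs 1 fell, 0 rose and 26 did not pass in limma. Among all 475 tested rows 4.84% passed at an adjusted p of 0.05, 1.68% as lower and 3.16% as higher, 15 rows higher and 8 lower, which other scalings turned to 12 higher and 14 to 19 lower. At an unadjusted p under 0.05 there were 4 predicted rows, all lower, against 20.2% of all rows tested and 5.89% as lower. On the recovered reads edgeR called 2 predicted rows, against 5.26% of all 475 rows (2.95% lower, 2.32% higher). DESeq2 called 3, against 12% (5.68% lower, 6.32% higher). Both called 0 predicted rows as higher. Of the predicted rows 13 had a log2 change above 0 and 14 below, against 65.7% above 0 over all tested rows. The median log2 change was -0.04 for the predicted rows and 0.15 for all 475 rows. Other scalings brought the median of all rows to between -0.05 and 0.01 and that of the predicted rows to between -0.18 and -0.12. With these scalings 7 to 10 of the 27 lay above 0, while the 65.7% over all rows holds for the authors' scale only. The groups did not overlap in 4 of the 27, 3 lower and 1 higher, against 26.7% of all tested rows, 7.58% lower and 19.2% higher.

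The predicted miRNA that fell was miR389-3p. It was at 35.3, 37.9 and 33.0 RPM in the normal-pressure libraries and at 9.91, 12.0 and 9.60 RPM in the hypobaric libraries. Behind these values stand 741, 855 and 687 reads and 210, 251 and 204 reads. The groups were far apart and each was tight, with a gap between them wider than either group's range. The means were 35.4 ± 2.44 and 10.5 ± 1.29 RPM (SD, n = 3), a ratio of 0.296. The log2 change was -1.67 ± 0.19 (SE), or -1.82 relative to the median of all tested rows, with limma adjusted p = 0.00159. It passed in all 20 alternatives, with log2 changes of -1.95 to -1.56 and adjusted p of 1.21e-16 (DESeq2) to 0.0186 (limma without normal-pressure library 3). Only its 3p arm is listed. The sums of the red-cell miRNAs and of miR-202 were higher in every hypobaric library than in any normal-pressure one, as given above. So were the lymphoid and myeloid and the kidney and gut sums, in which miR-223-3p, miR-142a-3p and miR-192-5p overlapped between the groups. The part of these sums in this result was not tested.

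**Figure D5:**
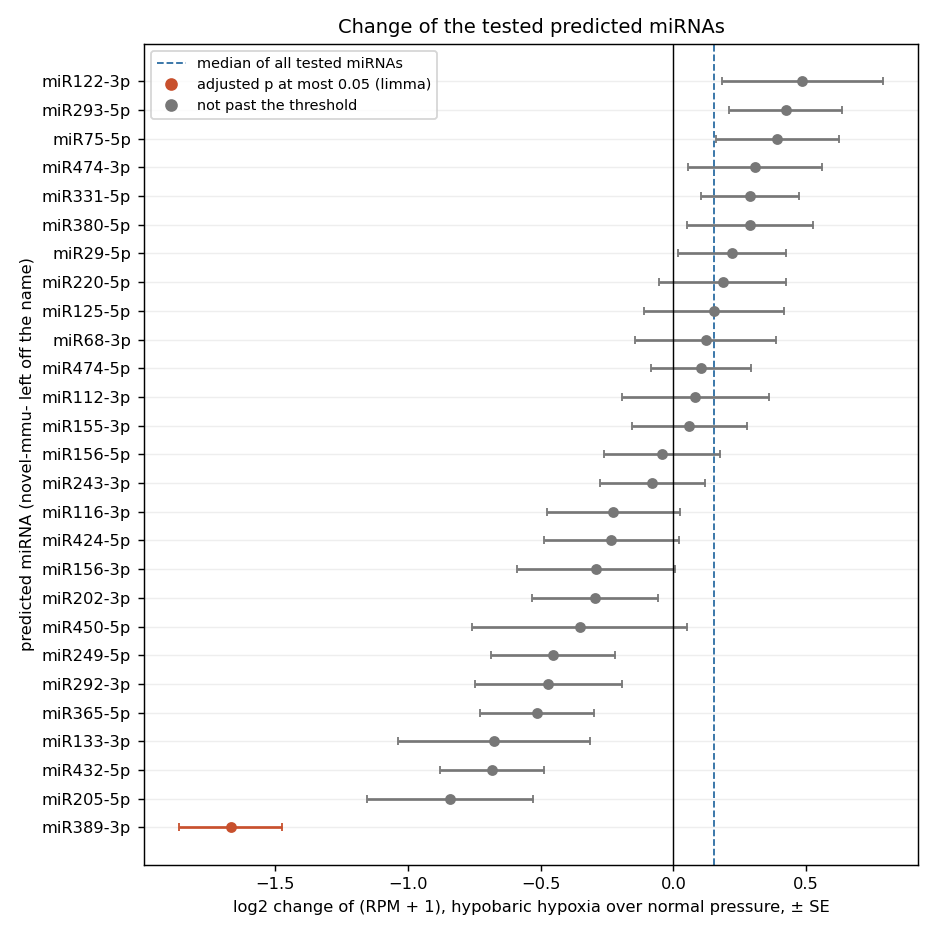
Log2 change of RPM + 1, hypobaric hypoxia over normal pressure, for the 27 tested predicted miRNAs, with bars for the SE of the limma fit. miR389-3p alone passes an adjusted p of 0.05, at -1.67, and the dashed line marks the median of all tested miRNAs, 0.15.

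Next by p-value was miR432-5p, which did not pass on the authors' scale. It was at 7.05, 7.23 and 8.37 RPM at normal pressure and 4.81, 4.62 and 3.58 RPM under hypobaric hypoxia, groups that did not overlap. The log2 change was -0.68 ± 0.20 (SE) with limma adjusted p = 0.0887. It passed with each of the 4 other scalings (adjusted p of 0.0184 to 0.0301), with edgeR (0.0227) and with DESeq2 (0.000809). No other setting called it. Fits with left-out libraries gave adjusted p of 0.142 to 0.249 in limma, and the replicate block gave 0.162. Without the filter, adjusted p was 0.250 in limma and 0.0747 in edgeR. Calls of miR432-5p were thus limited to 6 among 19 settings. Its opposite arm, miR432-3p, was rarer, with 3, 8 and 5 reads in the normal-pressure libraries and 1, 0 and 0 in the hypobaric ones. The groups of miR432-3p did not overlap, at a depth near the floor of 3 reads. The same held, with hypobaric lower, for 4.36% of all 825 rows under 1 RPM. Every listed row had a normal-pressure read, with no such condition for the hypobaric libraries, and this weighs on rows so low.

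Among the rows of at least 10 RPM the lowest p-value after miR389-3p belonged to miR205-5p. It was at 134, 211 and 185 RPM at normal pressure and at 69.6, 84.9 and 152 RPM under hypobaric hypoxia. Hypobaric library 3 lay above normal-pressure library 1 and far from the other hypobaric libraries. The log2 change was -0.84 ± 0.31 (SE), with limma adjusted p = 0.168. Without hypobaric library 3 the change was -1.17 with limma adjusted p = 0.0352. Without both that library and normal-pressure library 2 it was -1.03 with adjusted p = 0.0299. These were the only 2 of 20 alternatives in which miR205-5p passed, and calls over all 475 rows rose there from 23 to 34 and 47. Leaving out any other single library gave changes of -1.03 to -0.61 with limma adjusted p of 0.168 to 0.458.

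The fourth row with an unadjusted p under 0.05 was miR365-5p. It was at 14.5, 14.6 and 10.8 RPM at normal pressure and 8.07, 10.6 and 8.33 RPM under hypobaric hypoxia. The groups did not overlap, but normal-pressure library 3 and hypobaric library 2 nearly met. Its log2 change was -0.51 ± 0.21 (SE) with limma adjusted p = 0.230, and DESeq2 alone called it (adjusted p = 0.0429).

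No predicted miRNA passed as higher. The largest positive log2 change was 0.49 ± 0.30 (SE) for miR122-3p, at 0.810 to 1.97 RPM and 1.10 to 3.15 RPM, with limma adjusted p = 0.377. miR293-5p followed at 0.42 and miR75-5p at 0.39, with adjusted p = 0.290 and 0.355, and the groups of all 3 overlapped. The groups of miR331-5p did not overlap. It was at 3.05, 2.93 and 3.46 RPM at normal pressure and 3.87, 3.81 and 4.52 RPM under hypobaric hypoxia, with a log2 change of 0.29 and limma adjusted p = 0.389.

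The remaining 19 rows had overlapping groups. The lowest log2 changes among them were those of miR133-3p (-0.68), miR292-3p (-0.47) and miR249-5p (-0.45), with limma adjusted p of 0.299 to 0.355. The 2 most abundant rows gave 0.31 ± 0.25 (SE) for miR474-3p and -0.35 ± 0.41 (SE) for miR450-5p, with adjusted p = 0.505 and 0.630. For miR474-3p the change was 0.057 without normal-pressure library 2 and 0.20 without hypobaric library 1. For miR450-5p it was -0.089, -0.11 and -0.86 without normal-pressure libraries 1, 2 and 3, and -0.28, -0.24 and -0.55 without hypobaric libraries 1, 2 and 3. Both arms of miR156 were on the list, at -0.29 for 3p and -0.04 for 5p, and so were both arms of miR474, with 0.10 for 5p. The other 11 ran from miR202-3p (-0.30) over miR424-5p, miR116-3p, miR243-3p, miR155-3p, miR112-3p, miR68-3p, miR125-5p, miR220-5p and miR29-5p to miR380-5p (0.29). Adjusted p was at least 0.505 for these 11 rows and for both arms of miR156 and miR474. The sign turned under at least 1 other scaling for miR220-5p, miR125-5p, miR474-5p, miR68-3p, miR112-3p and miR155-3p.

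The spread between replicates was compared with that of the annotated rows. The coefficient of variation of the RPM (SD over mean, n = 3) had a median of 26.3% at normal pressure and 21.5% under hypobaric hypoxia over the 27 rows. Over the annotated tested rows the medians were 22.0% and 17.8%. These sets differed in level: 10 of the 27 predicted rows averaged at least 10 RPM, against 240 of the 448 annotated rows. The rows were not matched for level, and its part in the difference was not tested. The steadiest predicted row was miR474-5p with 3.59% at normal pressure, and miR389-3p had 6.88% there. The most variable were miR122-3p and miR156-3p at normal pressure, with 54.8% and 54.4%, and miR112-3p under hypobaric hypoxia with 55.6%. Of the 3 most abundant rows, 2 spread widely in one group, miR450-5p at normal pressure with 48.5% and miR205-5p under hypobaric hypoxia with 43.0%.

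Among the 248 predicted rows under 1 RPM, limma without the filter called 0, against 1.69% of all 1300 rows. It found 13 with an unadjusted p under 0.05, 9 of them lower, against 10.5% and 3.92% of all rows. edgeR without the filter, an alternative chosen after seeing the data, called 1, lower, against 2.54% of all rows and 1.23% as lower. It found 10 with an unadjusted p under 0.05, all lower, against 10.8% and 6.08%. Groups did not overlap in 10 of the 248 as lower and 4 as higher, against 4.36% and 3.39% of all 825 rows under 1 RPM. Of the 248 rows, 30 had at least 40 reads in all. The following were chosen after their values were seen.

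The row called by edgeR was miR428-3p, with 13, 36 and 28 reads in the normal-pressure libraries and 3, 6 and 1 reads in the hypobaric ones. These are 0.619, 1.60 and 1.35 RPM against 0.142, 0.286 and 0.0470 RPM, a ratio of the means of 0.133. The edgeR log2 change was -3.01 with adjusted p = 0.00731 over 1300 rows. In limma without the filter its log2 change was -0.89 ± 0.23 (SE) on the log2(RPM + 1) scale, with adjusted p = 0.0985. The call thus depended on the test, at a level where the hypobaric libraries held 10 reads in all.

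Of the 30 rows under 1 RPM with at least 40 reads, groups did not overlap in 4 as lower and 2 as higher, against 7.75% and 9.86% of all 142 rows of that kind. Besides miR428-3p, miR376-3p (16, 22 and 29 reads against 4, 12 and 6), miR186-5p (12, 20 and 11 against 4, 4 and 5) and miR13-5p (13, 14 and 11 against 9, 6 and 3) were lower. In the other direction miR55-5p had 3, 7 and 4 reads against 11, 10 and 13, and miR347-5p 2, 7 and 5 against 7, 7 and 13. None of these 5 passed in limma or edgeR without the filter, where edgeR adjusted p was 0.133 for miR376-3p and 0.156 for miR186-5p.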

How the data were processed

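Per the labels' protocols, 1.3 µg of total RNA entered each small RNA library, read as single-end reads of 50 bases. Bowtie2, DESeq2 and GRCm38.p6 are named, without role or version, per the submitters' processing notes. For the prediction method and for reads matching several miRNAs, the sources used here give no details. Values as deposited, called TPM in the table's name, are RPM: reads per 1000000 of a total set by the authors. Within 0.0005 RPM, 100% of values in each library were whole reads of 1 implied total. No libraries of a group agreed within sampling noise (chi-square over degrees of freedom at least 144).

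The members, tests and named miRNAs were chosen with earlier results of these data known. All 27 predicted rows with a mean of at least 1 RPM are named, with the 3 next below, rows read throughout one group only, and the deepest hairpins with both arms; others were chosen after their values were seen. limma 3.58.1 (R 4.3.3, variance trend, two-sided) was fitted to log2(RPM + 1). edgeR 4.0.16 and DESeq2 1.42.0 on recovered counts were alternatives. The fits were tested on simulated data. Single values per library were compared by exact permutation (Python 3.11.15, scipy 1.17.1). The other alternatives were pseudocounts, filters, scalings, a replicate block and left-out libraries. Replicate numbers did not pair the libraries.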

Additional observations from a re-analysis of the deposited data

How the results depend on the processing

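The count of predicted miRNAs called, 1, was 2 with median-of-ratios scaling, quantile scaling, totals without the 10 most abundant miRNAs, totals over all miRNAs and edgeR, and 3 with DESeq2. It was also 2 with edgeR without the filter, an alternative chosen after seeing the data, and without normal-pressure library 2 and hypobaric library 3 together. Leaving out 1 library gave 1 to 2 calls. Same-numbered libraries correlated at 0.35, -0.47 and -0.29 in their deviations from the group means, and not every library correlated best with its own number, so the numbers give no pairing. Adding the replicate block gave 1 call, as without it. Over all 475 rows the 23 calls (15 higher, 8 lower) became 57 with DESeq2 (30 and 27), 11 without hypobaric library 1, 10 without hypobaric library 2, 18 to 34 without each other library, and 47 without the 2 named. The higher and lower calls were 12 and 16 with median-of-ratios scaling, 12 and 14 with quantile scaling, 12 and 19 with both other totals, and 11 and 14 with edgeR. The 5p share difference became 1.09 percentage points without the most abundant row. Without that row the groups also overlapped in the share of miRNA reads, with exact permutation p = 0.2 in place of 0.1. Of 523 refits of single predicted miRNAs, 471 kept direction and side of the threshold, 9 newly passed and 43 changed sign, the latter all in rows with an adjusted p of at least 0.505. Changed log2 values were, with median-of-ratios scaling, -0.046 for miR474-5p, -0.010 for miR68-3p and -0.11 for miR155-3p. With quantile scaling they were -0.068 for miR125-5p, -0.12 for miR474-5p, -0.032 for miR68-3p, -0.11 for miR112-3p and -0.077 for miR155-3p. With totals without the 10 most abundant they were -0.059 for miR220-5p, -0.054 for miR125-5p, -0.11 for miR474-5p, -0.064 for miR68-3p, -0.022 for miR112-3p and -0.18 for miR155-3p. With totals over all miRNAs they were -0.019 for miR220-5p and miR125-5p, -0.075 for miR474-5p, -0.034 for miR68-3p, -0.0051 for miR112-3p and -0.14 for miR155-3p. For miR474-5p, miR68-3p and miR155-3p they were -0.054, -0.12 and -0.11 with edgeR, -0.044, -0.11 and -0.11 with DESeq2, and -0.0014, -0.065 and -0.063 with edgeR without the filter. Without both of those libraries they were -0.022 for miR380-5p, -0.16 for miR125-5p, 0.031 for miR243-3p, -0.11 for miR112-3p and -0.028 for miR155-3p. Leaving out 1 library gave -0.059 to 0.36 for miR125-5p, -0.083 to 0.39 for miR68-3p, -0.20 to 0.0089 for miR243-3p, -0.12 to 0.32 for miR112-3p, -0.075 to 0.18 for miR155-3p and -0.21 to 0.098 for miR156-5p. The causes were not tested. With the filter raised to 10 RPM, 17 of the 27 rows had no value, and all 27 tested rows were detected in every library, so that restriction gave no difference in detection. Depth limits the rows under 1 RPM. The median over all 275 predicted rows was 9 reads in the 6 libraries together. Of the 248 predicted rows under 1 RPM, 30 had at least 40 reads.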
